A study of Mus musculus with 16 samples.

Results

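The thyroids of mice lacking GLIS3 in the follicular cells were compared with those of WT mice while both were on a low iodine diet (LID). The comparison used 8 of the 16 RNA-Seq samples of the series, chosen by their labels for genotype and diet, with 4 mice in each of *Glis3*-Pax8Cre(LID) and WT(LID). Of 16630 genes with enough reads to test, 1319 (7.93%) were called, 834 lower (5.02%) and 485 higher (2.92%) in *Glis3*-Pax8Cre(LID). A gene was called when its adjusted p was under 0.01 and its fold change was over 2. All mice were 1 month old and labelled as strain C57BL/6, and RNA came from the thyroid gland. The controls were labelled WT with no further alleles. The conditional knockouts carried Glis3<tm2Amj> and Pax8<tm1.1(cre)Mbu>, named in the label as B6;129, in which Cre driven by the *Pax8* gene removes exon 5 of *Glis3*. GLIS3 loss, the Cre allele at *Pax8* and any 129 background go together here and cannot be told apart. The effect of GLIS3 loss means this whole difference between the genotypes. LID was Harlan diet TD.95125, and the other 8 mice, 4 of each genotype, ate the normal diet NIH31 (ND).

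GLIS3 is a Krüppel-like zinc finger transcription factor of thyroid follicular cells, the epithelial cells that take up iodide and store thyroglobulin in the follicle lumen. When iodine is scarce, thyroid hormone falls and the pituitary releases thyroid stimulating hormone (TSH), which drives follicular cells through the TSH receptor and enlarges the gland. GLIS proteins bind DNA at G-rich sites.

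Promoters of the called genes were searched for the letters TGGGGGGT, a core of the GLIS-binding sequence, on both strands from 250 bases before to 50 after each RefSeq start (build GRCm38.p6). They occurred in 20 of 784 promoters (2.55%) of lower genes, in 12 of 469 (2.56%) of higher genes, in 1.51% of those of tested genes that were not called, and in 1.53% of all promoters searched. The search covered promoters of 590 of the 834 lower and 375 of the 485 higher genes, and the other called genes were not searched. The shorter letters GGGGGT, which every longer match also holds, occurred in 26.5%, 23.2%, 21.8% and 18.7% of the same promoters. A match is a description of the letters and not a binding site. Shown here are 60 bases upstream of the start from the 3 lower and the 3 higher genes with the largest changes among the called genes with a match and a mean of at least 1 CPM. They are written in the direction of the gene with the match in capitals, ACCCCCCA being the same letters on the other strand.
Loxl4: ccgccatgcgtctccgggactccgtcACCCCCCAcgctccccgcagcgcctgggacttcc
Prr29: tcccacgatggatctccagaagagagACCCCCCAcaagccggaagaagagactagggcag
Entpd3: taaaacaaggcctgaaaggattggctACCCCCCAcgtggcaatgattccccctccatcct
Cpne4: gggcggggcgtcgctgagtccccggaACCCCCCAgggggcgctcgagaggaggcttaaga
Wnt5b: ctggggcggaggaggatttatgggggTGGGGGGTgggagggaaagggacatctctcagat
Elf5: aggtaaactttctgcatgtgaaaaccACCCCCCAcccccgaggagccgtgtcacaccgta

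The lower genes of these 6 were *Loxl4* (chr19:42612941-42613000, minus strand), *Prr29* (chr11:106374682-106374741, plus strand) and *Entpd3* (chr9:120539635-120539694, plus strand). *Loxl4*, a lysyl oxidase-like enzyme that cross-links collagen, averaged 45.7 against 8.15 CPM in WT(LID) and *Glis3*-Pax8Cre(LID), or -2.49 on the log2 scale. *Entpd3*, an enzyme that breaks down extracellular nucleotides, averaged 13.5 against 4.402 CPM. *Prr29* was near the low end of the table, with 1.96 against 0.446 CPM. The higher genes were *Cpne4* (chr9:104569558-104569617, plus strand), *Wnt5b* (chr6:119449565-119449624, minus strand) and *Elf5* (chr2:103423946-103424005, plus strand). *Wnt5b*, a secreted WNT ligand, averaged 3.28 against 29.7 CPM, and *Elf5*, an ETS family transcription factor of epithelia, averaged 10.4 against 33.9 CPM. Of the 6, *Cpne4* changed most and is described with the higher genes below.

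The 8 LID libraries held 55451647 to 85741075 read pairs in genes, and the ND libraries 13892352 to 461077969. Levels are in CPM, read pairs of a gene scaled to a common library size with TMM, a normalization that sets most genes level between libraries. The counts of *Glis3* cover the whole gene, not the removed exon alone, and so check nothing about the deletion. They were 125, 174, 165 and 161 CPM in the WT mice against 150.3, 119.5, 204 and 185 CPM in the knockouts, with an adjusted p of 0.810. *Pax8*, whose locus carries Cre, had 329.8, 339, 329.7 and 280.2 CPM in the WT mice against 936, 753, 828 and 828 CPM in the knockouts, with no overlap. Among the WT(ND) mice *Pax8* was 397, 374, 996 and 385 CPM against 958, 989, 944 and 643 CPM in *Glis3*-Pax8Cre(ND), so the library labelled WT(ND) replicate 3 was above all knockouts for this gene. For *Cpne4* it had 59.1 CPM, between the other WT(ND) mice (2.74 to 3.49) and the ND knockouts (120.1 to 208). For *Slc5a5*, the sodium iodide symporter, it had 81.8 CPM, below the other WT(ND) mice (132 to 187) but nearer to them than to the ND knockouts (8.43 to 15.8). For the surfactant gene *Sftpb* it had 37.99 CPM, within the ND knockouts (20.1 to 45.9) and above the other WT(ND) mice (1.61 to 3.04). Whether this library was labelled correctly was not tested. The library enters the LID comparison through the shared estimate of spread and the filter on low counts, which passed 16849 genes without it. The main results for ND are given with and without it. Without it, 861 genes were lower and 525 higher under LID.

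RNA of neighbouring tissue was present in some LID libraries. The summed level of 10 skeletal muscle markers was 1215 CPM in WT(LID) replicate 3 and 977 CPM in *Glis3*-Pax8Cre(LID) replicate 2, and between 2.87 and 297 CPM in the others. Summed thymocyte and T cell markers were 180.2 CPM in WT(LID) replicate 3, 265 CPM in *Glis3*-Pax8Cre(LID) replicate 4 and 2.87 to 4.30 CPM in the other 6 libraries. Of the 10 muscle and 6 thymocyte markers 0 were called by edgeR, 0 had an unadjusted p under 0.05 and 0 were called by DESeq2. Leaving out both thymocyte libraries gave 636 lower and 357 higher genes, of which 616 and 343 were also called with all mice. Leaving out both muscle-rich libraries gave 735 lower and 392 higher genes, 668 and 370 of them shared. The follicular cell markers were present in every library, and the first principal component, with 61.1% of the variance, separated the genotypes.

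**Figure D1:**
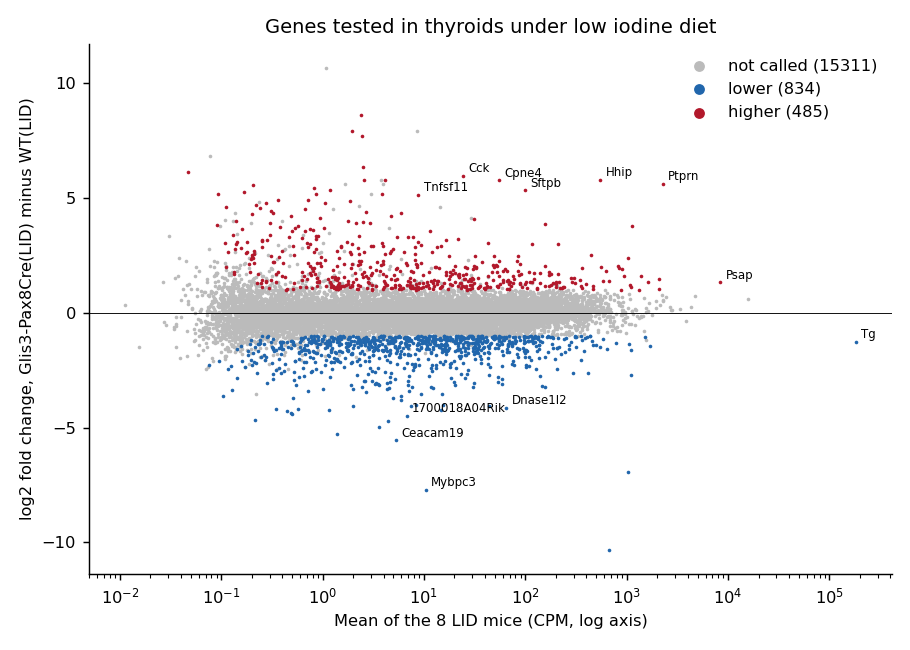
Each point is 1 of 16630 tested genes, with the mean of the 8 LID mice in CPM on a log axis and the log2 fold change of *Glis3*-Pax8Cre(LID) over WT(LID) on the other. Blue points are the 834 lower genes and red points the 485 higher genes, and *Tg* lies far to the right of all others.

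Large fold changes made up a larger share of the higher genes than of the lower ones. Of the higher genes 176 changed over 4-fold and 39 over 16-fold, against 187 and 22 of the lower genes, and the median log2 fold changes were 1.65 and -1.43. The values of the 4 knockout mice did not overlap those of the 4 WT mice in 825 of the lower and 480 of the higher genes, against 17.9% of all tested genes without overlap and lower, and 17.7% without overlap and higher. Calls and overlap rest on the same values, so the lack of overlap among called genes follows largely from the calling. The split between the directions depended on scaling. With library size alone, which moves the median of all genes up by 0.15 on the log2 scale, 623 genes were lower and 648 higher. Of the called genes, 36.8% were higher with TMM and 51.0% with library size alone.

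Genes were ranked by fold among called genes with no overlap between the groups and a mean of at least 5 CPM. Lack of overlap was thus a condition of choice and not a result. Leaving out genes that the study itself discusses, the largest rise was that of *Cck*, the peptide hormone cholecystokinin (mm10 chr9:121489824-121495694). It was 0.991, 0.703, 0.611 and 0.75 CPM in the WT(LID) mice and 39.4, 58.6, 40.7 and 50.6 CPM in the *Glis3*-Pax8Cre(LID) mice. The log2 fold change was 5.95 ± 0.34 (SE, adjusted p 2.06e-08). *Ptprn* encodes IA-2, a transmembrane protein of dense-core secretory granules in endocrine cells (chr1:75247041-75264208). It was 101, 125, 65.1 and 74.1 CPM in the WT mice against 4392, 4223, 4891 and 4307 CPM in the knockouts, a log2 fold change of 5.61 ± 0.46 (adjusted p 7.87e-07). It had the second largest gain in CPM of the genes named by size of gain, after *Psap*.

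*Hhip* encodes a membrane protein that binds hedgehog ligands and limits their signal (chr8:79965851-80058008). It was 16.1, 26.5, 18.4 and 18.3 CPM in the WT mice against 975, 761, 1311 and 1274 CPM in the knockouts, with a log2 fold change of 5.77 ± 0.33 (adjusted p 2.17e-08). The groups lay far apart although the knockouts spread from 761 to 1311 CPM. *Gli1*, a transcriptional target of hedgehog signalling, was lower, with a log2 fold change of -1.64. *Cpne4*, a calcium-dependent phospholipid-binding copine, was 2.05, 1.94, 2.07 and 1.93 CPM in the WT mice against 97.2, 107, 113 and 116 CPM in the knockouts. The SD was 0.0702 and 8.24 CPM (n = 4), and the log2 fold change was 5.76 ± 0.98 (adjusted p 0.000644).

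*Sftpb*, surfactant protein B of lung alveoli and airways, was 4.67, 4.96, 4.33 and 5.44 CPM in the WT mice against 174, 208, 181 and 216 CPM in the knockouts. All 4 knockouts were high and the log2 fold change was 5.33 ± 0.95 (adjusted p 0.00088). Of 7 airway markers, *Sftpb* and *Scgb3a1* were called higher and *Foxj1* lower, and *Scgb3a1* was 25.7, 0.1302, 0.544 and 3.32 CPM in the knockouts, high in replicate 1 and overlapping the WT mice, which had 0.248, 0.04305, 0.216 and 0.315 CPM. The summed level of the list was 7.19 to 9.36 CPM in WT(LID) and 183 to 259.9 CPM in *Glis3*-Pax8Cre(LID), most of it *Sftpb*. The secretory cell marker *Scgb1a1* was 27.8, 0.846, 0.322 and 2.197 CPM in the knockouts, also high in replicate 1, and *Sftpc*, which defines alveolar type II cells, was at most 0.309 CPM in any LID mouse. *Napsa*, an aspartic protease of lung and kidney that processes surfactant protein B, was also higher, at 922, 947, 875 and 889 CPM against 2332, 2395, 2275 and 2227 CPM. *Slc34a2*, a sodium-phosphate cotransporter, rose from 9.35 to 76 CPM (adjusted p 0.00908) but lost its call in 15 of the alternatives tried, among them each LID mouse left out in turn except WT(LID) replicate 3 (2.77 to 3.20 on the log2 scale).

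The other genes with the largest rises were a mixed group. *Tnfsf11*, the ligand RANKL that drives osteoclast formation, was 0.391, 0.402, 0.593 and 0.555 CPM in the WT mice against 13.4, 19.5, 17.6 and 17.6 CPM in the knockouts. *Hp*, the haemoglobin-binding plasma protein haptoglobin, was 189.7, 147, 148 and 124 CPM against 1819.8, 2263, 2215 and 2045 CPM, so a gene already well expressed rose 13.7-fold. *Col25a1*, a membrane-bound collagen, averaged 20.4 ± 2.64 CPM and 293 ± 63.8 CPM (SD, n = 4). *Rbm11*, an RNA-binding protein, averaged 0.555 ± 0.0545 and 11.2 ± 1.36 CPM, and *Ptgdr*, a receptor for prostaglandin D, 3.54 ± 1.18 and 59.01 ± 15.8 CPM. *Ptgdr* lost its call when both thymocyte libraries (3.97 on the log2 scale) or both muscle-rich libraries (3.89) were left out. *Pmp2*, a fatty acid-binding protein of myelin, averaged 1.78 ± 0.465 and 21.1 ± 6.76 CPM. *Esp8* of the exocrine gland-secreted peptide family averaged 1.28 ± 0.325 and 12.8 ± 2.62 CPM, and missed the call when any of WT(LID) replicates 2, 3 or 4 was left out (3.20 to 3.38 on the log2 scale).

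*Psap*, the precursor of the saposins that help degrade sphingolipids in lysosomes, was 4744, 5040.2, 4507 and 4924 CPM in the WT mice against 10962, 12362, 11831 and 13018 CPM in the knockouts. This 2.51-fold rise (adjusted p 4.87e-06) was the largest gain in CPM of the called genes that the named gene rule covers. *Ctsl*, the lysosomal protease cathepsin L, which takes part in the breakdown of thyroglobulin, rose 2.72-fold from 1148, 1104, 1072 and 1149.7 to 3254, 3084, 2908 and 2920.3 CPM. *App*, the amyloid precursor protein, averaged 1379 ± 104 and 2808 ± 190.0 CPM, just past the fold threshold, and was under it without *Glis3*-Pax8Cre(LID) replicate 3 (0.99 on the log2 scale) or WT(LID) replicate 1 (0.97).

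**Figure D2:**
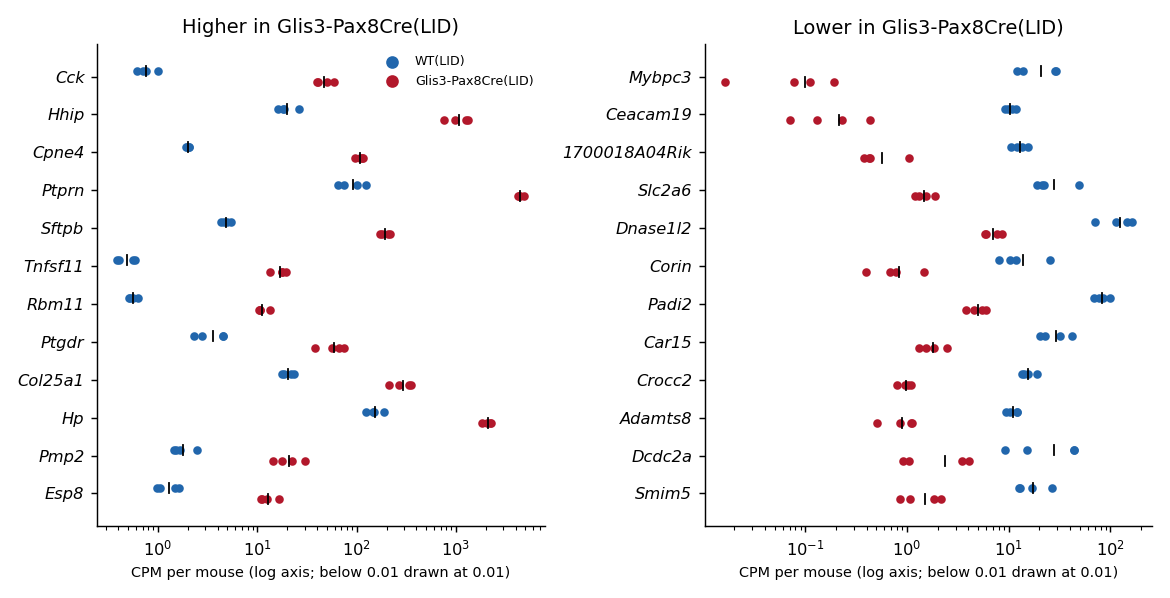
Each point is 1 mouse, blue for WT(LID) and red for *Glis3*-Pax8Cre(LID), at its CPM on a log axis, and the black ticks are group means. The 12 genes with the largest rises and the 12 with the largest falls are shown, chosen among called genes whose groups do not overlap.

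Chosen in the same way, the largest fall was that of *Mybpc3*, cardiac myosin-binding protein C of the heart sarcomere (chr2:91118144-91136516). It was 28.3, 13.7, 11.9 and 28.9 CPM in the WT mice against 0.0777, 0.0163, 0.111 and 0.193 CPM in the knockouts. The WT(LID) values varied among themselves, but every knockout, with 6, 1, 9 and 11 read pairs, was far below them, and the log2 fold change was -7.70 ± 0.95 (adjusted p 3.81e-05). Heart muscle markers were low in both groups, summing to 2.22 to 2.89 CPM in WT(LID) and 1.25 to 2.13 CPM in the knockouts. Of 3 tested, *Tnnt2* was called lower, and *Myh6* and *Myl7* had too few reads to test. The part of these markers in *Mybpc3* was not tested. *Corin*, a protease that activates atrial natriuretic peptide, fell from 25.5, 11.8, 8.07 and 10.3 CPM to 1.48, 0.3905, 0.681 and 0.773 CPM.

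*Ceacam19*, a cell adhesion molecule of the carcinoembryonic antigen family (chr7:19875742-19887965), was 10.7, 9.92, 11.7 and 9.12 CPM in the WT mice against 0.1296, 0.228, 0.433 and 0.0703 CPM in the knockouts. The knockouts had 10, 14, 35 and 4 read pairs. The log2 fold change was -5.55 ± 0.80 (adjusted p 0.000126). *Car15*, a membrane-anchored carbonic anhydrase (chr16:17835276-17838186), was 20.5, 42.1, 31.7 and 22.9 CPM against 1.32, 2.46, 1.53 and 1.83 CPM (-4.04 ± 0.24 on the log2 scale, adjusted p 1.68e-08). *Padi2*, which converts arginine in proteins to citrulline, averaged 82.1 ± 12.7 and 4.97 ± 0.974 CPM, and its reads cannot be told apart from those of the overlapping antisense entry *Gm13031*. *Dnase1l2*, a DNase of epithelia, averaged 123 ± 40.9 and 7.03 ± 1.31 CPM.

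*Slc2a6*, a sugar transporter of lysosomes, was 48.6, 21.4, 22.3 and 19.1 CPM in the WT mice against 1.54, 1.302, 1.2 and 1.86 CPM in the knockouts. WT(LID) replicate 1 was high, and the other 3 WT mice remained above all knockouts. *Adamts8*, a secreted metalloprotease, fell from 10.97 ± 1.37 to 0.894 ± 0.283 CPM, and *Crocc2*, a ciliary rootlet protein, from 15.6 ± 2.34 to 0.968 ± 0.123 CPM. *Dcdc2a*, a microtubule-binding doublecortin protein, was 9.16, 43.8, 43.8 and 15.2 CPM against 0.92, 3.43, 4.07 and 1.04 CPM, with replicates 2 and 3 the highest in both groups. It lost its call in the 8 LID mice alone (-3.57 on the log2 scale) and without both thymocyte libraries (-3.02). The 2 further genes of the largest falls were *Smim5* (-3.54 on the log2 scale), which overlaps *Recql5*, and *1700018A04Rik* (-4.49), which lies on the same stretch of chromosome 13 as *Foxq1* and *Foxf2*.

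By loss in CPM among the genes named, *Tg*, the thyroglobulin precursor of thyroid hormone, stood first. Its share of all counts was 20.9%, 26.8%, 25.5% and 19.6% in WT(LID) and 11.4%, 7.87%, 13.2% and 9.94% in *Glis3*-Pax8Cre(LID). The means were 23.2% ± 3.49 and 10.6% ± 2.27 (SD, n = 4), and the groups did not overlap (exact permutation test, two-sided, p = 0.0286, the smallest this design allows). In CPM the log2 fold change of *Tg* was -1.28 ± 0.23 (adjusted p 0.000683), and it lost its call when both thymocyte libraries (-1.18) or both muscle-rich libraries (-1.09) were left out. *Cdh16*, the cadherin of thyroid and kidney epithelium, was 1688, 1594, 1632 and 1660.2 CPM against 465, 608, 564 and 525 CPM. *Dio1*, the deiodinase that makes T3 from T4, was 1181, 1133, 1141 and 1074 CPM against 431, 495, 479 and 401 CPM. *Rrbp1*, a ribosome-binding protein of the endoplasmic reticulum, fell from 2042 ± 172 to 983 ± 108 CPM (-0.91 on the log2 scale with library size alone, which is not called). *Col4a2*, a basement membrane collagen chain whose gene overlaps that of *Col4a1*, fell from 1517 ± 141 to 585 ± 109 CPM.

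Not all follicular cell genes were lower. *Tshr*, the TSH receptor, was 260.3, 344, 321 and 289.7 CPM in the WT mice against 588, 581, 733 and 616 CPM in the knockouts, a log2 fold change of 1.05 (adjusted p 0.00599). *Iyd*, which recovers iodide from iodotyrosines, had a log2 fold change of -0.16 and was not called.

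Endothelial markers were lower in the knockouts. In bulk RNA, fewer cells of a type and less RNA per cell cannot be told apart. The summed level of 5 endothelial markers was 1316 to 1488 CPM in WT(LID) and 591 to 754 CPM in *Glis3*-Pax8Cre(LID), and *Pecam1*, *Cdh5* and *Tie1* were called lower. *Pecam1* was 387, 366, 449 and 424 CPM against 113, 169, 145 and 120.4 CPM, whereas *Emcn* had a log2 fold change of -0.41 and was not called. Summed pericyte markers were 768 to 1169 CPM against 391 to 605 CPM, with *Acta2*, smooth muscle actin, the 1 called of 4. Summed fibroblast markers were 655 to 763 CPM against 265 to 457 CPM, but of the 5 *Col1a1* alone was called, and *Dcn* (-0.17) and *Lum* (-0.07) were not. Macrophage markers summed to 168 to 185 CPM and 148 to 195 CPM, overlapping, with 0 of 5 called by edgeR or DESeq2 and 1 in each direction at an unadjusted p under 0.05.

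**Figure D3:**
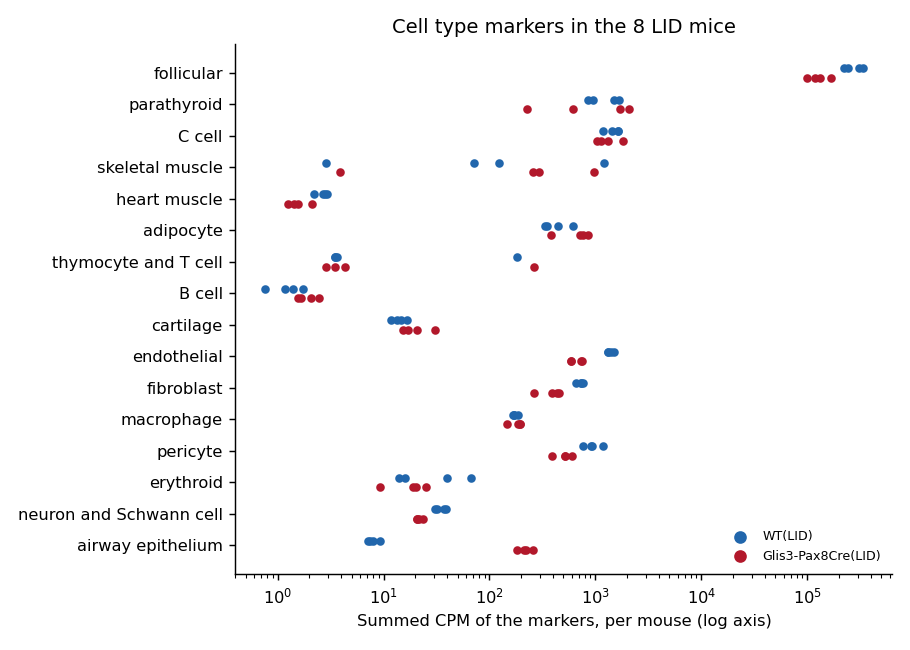
Each point is the summed CPM of a marker list in 1 mouse on a log axis, blue for WT(LID) and red for *Glis3*-Pax8Cre(LID). Endothelial and pericyte sums are lower in every knockout, macrophage sums overlap, and muscle, thymocyte and parathyroid sums differ between mice of the same group.

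Several gene lists hold genes known from endothelial cells, and the part of the endothelial difference in their values was not tested. Of 58 complement and coagulation genes tested, 9 were lower (15.5%) and 5 higher (8.62%), with a median log2 fold change of -0.15 against 0.01 over all genes. The lower ones included the endothelial anticoagulant and adhesion genes *Thbd* (-1.61 on the log2 scale) and *Vwf* (-1.53), the urokinase *Plau* (-1.40) and its receptor *Plaur*. *Plaur* was 19.95, 19.6, 26.3 and 23.3 CPM in the WT mice against 2.81, 5.29, 4.52 and 4.01 CPM in the knockouts. The other plasminogen activator, *Plat*, moved the other way, from 39.5, 39.4, 46.9 and 46.3 CPM to 128, 133, 138 and 149.8 CPM, and so did *Cd55*, which protects cells from complement, from 27.2 to 82.6 CPM.

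Of 50 receptor tyrosine kinases, 7 were lower (14%) and 4 higher (8%), with a median of -0.12. The lower count was 4 with library size alone and 4 without both thymocyte libraries. The angiopoietin receptor *Tek* (-1.38), its relative *Tie1* (-1.28) and the lymphatic VEGF receptor *Flt4* (-1.07) were among the lower. *Fgfr3*, an FGF receptor, averaged 32.5 ± 6.36 and 10.8 ± 2.196 CPM, and *Epha3* averaged 2.98 and 1.13 CPM. Among the higher, *Erbb4*, a neuregulin receptor, rose from 6.74, 9.38, 9.35 and 7.06 CPM to 28.04, 18.6, 36.4 and 29.1 CPM, and the ephrin receptor *Ephb3* from 21.4 to 72.8 CPM on average.

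Of 72 actin and focal adhesion genes, 7 were lower (9.72%) and 0 higher, with a median of -0.34. At an unadjusted p under 0.05 edgeR had 4 higher, and DESeq2 called 0. With library size alone 4 were lower. *Tagln*, the smooth muscle actin-binding protein transgelin, was 114, 124, 128 and 147 CPM in the WT mice against 35.7, 46.1, 37.6 and 27.2 CPM in the knockouts. *Parvb*, a focal adhesion protein that links integrins to actin, averaged 147 ± 9.57 and 46.1 ± 7.58 CPM. Smooth muscle *Cnn1* (-1.15) and *Myl9* (-1.30) were also lower, beside the fall of *Acta2*.

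Annexins and S100 proteins, which bind calcium and membranes or calcium alone, had the highest share of lower members of the 20 lists. Of 25 tested, 9 were lower (36.0%) and 1 higher, with a median of -0.44. *Anxa9* was 35.4, 35.99, 40.4 and 32.4 CPM in the WT mice against 4.11, 4.46, 3.69 and 4.25 CPM in the knockouts, a log2 fold change of -3.13 ± 0.14 (adjusted p 1.67e-09), and it overlaps *Mindy1* on the other strand. *S100b* averaged 44.95 ± 5.21 and 6.34 ± 1.62 CPM. The widely expressed *Anxa1* (-1.25), *Anxa2* (-1.27), *S100a4* (-1.20) and *S100a6* (-1.19) were lower too. The exception was *S100g*, the calcium-binding protein calbindin-D9k, which rose from 1.12, 1.09, 0.755 and 0.75 CPM to 9.34, 5.304, 6.68 and 6.61 CPM and overlaps other entries. A second member was called higher without *Glis3*-Pax8Cre(ND) replicate 4 or WT(ND) replicate 1, with DESeq2 and in the 8 LID mice alone.

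**Figure D4:**
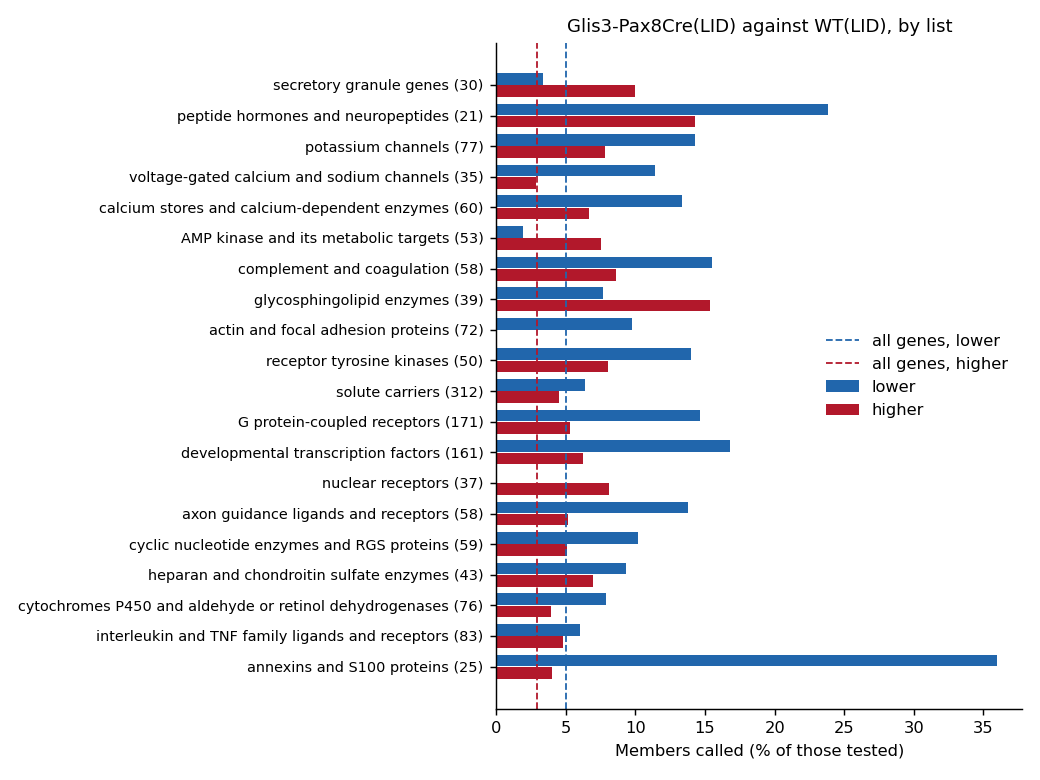
Bars give the percent of tested members of each gene list called lower (blue) or higher (red) in *Glis3*-Pax8Cre(LID), with the number tested in brackets. Dashed lines are the shares over all tested genes, 5.02% lower and 2.92% higher, and the annexins and S100 proteins reach 36.0% lower.

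Secreted peptides moved in both directions. Of 21 peptide hormones and neuropeptides, 5 were lower (23.8%) and 3 higher (14.3%), with a median of -0.09. Without both thymocyte libraries 3 were lower. *Grp*, gastrin-releasing peptide, rose from 334, 361, 341 and 283 CPM to 1367, 2016, 2187 and 1269 CPM, and *Nmb*, of the same bombesin family, had a log2 fold change of 1.12. *Npy*, neuropeptide Y, was 6.35, 7.404, 7.604 and 6.67 CPM in the WT mice against 1.13, 1.87, 0.458 and 1.32 CPM in the knockouts, lower in every knockout. *Nts*, neurotensin, averaged 2.203 ± 0.944 and 0.547 ± 0.121 CPM, and the endothelial peptides *Edn1* (-1.48) and *Apln* (-1.55) were lower. The C cell markers summed to 1174 to 1639 CPM in WT(LID) and 1032 to 1816 CPM in the knockouts with 0 of 3 called by edgeR or DESeq2 and 1 lower at an unadjusted p under 0.05.

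Of 30 secretory granule genes, 3 were higher (10%) and 1 lower (3.33%), against 2.92% and 5.02% of all genes. The other 26 were not called, and the median log2 fold change of the list was -0.14. Beside *Ptprn*, *Scg5*, the chaperone 7B2 of prohormone convertase 2, rose from 342, 348, 352 and 359 CPM to 1345, 1441, 1311 and 1253 CPM. *Pam*, which amidates peptides, was just past the threshold (1.00). *Syt7*, a calcium sensor of exocytosis, was just past it in the other direction (-1.01), and lost its call in 8 alternatives, among them without *Glis3*-Pax8Cre(LID) replicates 1, 2 or 4 or WT(LID) replicates 1 or 2 (the smallest being -0.97) and with library size alone (-0.86).

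Ion channels were called in both directions. Of 77 potassium channel genes, 11 were lower (14.3%) and 6 higher (7.79%), with a median of -0.18. Without both thymocyte libraries 3 were higher. *Kcnh1* averaged 4.95 ± 0.866 and 0.926 ± 0.397 CPM and *Kcnc2* 9.08 ± 2.18 and 2.396 ± 0.999 CPM. *Kcnq1*, a potassium channel that thyroid cells need for normal iodide uptake, had a log2 fold change of -1.72. *Kcnf1* rose from 0.352, 0.459, 0.342 and 0.315 CPM to 4.98, 4.26, 6.78 and 6.099 CPM, and *Kcnip2* from 1.48 to 4.57 CPM on average. Of 35 voltage-gated calcium and sodium channel genes, 4 were lower (11.4%) and 1 higher (2.86%). The lower count was 2 without *Glis3*-Pax8Cre(LID) replicates 3 or 4 or WT(LID) replicates 1, 2 or 3. It was 1 without both thymocyte or both muscle-rich libraries, so this count changed with the mice included. Lower calls over all genes also fell, from 834 to 636 without both thymocyte libraries and to 735 without both muscle-rich libraries. *Cacna1a* fell from 17.99 to 5.47 CPM and *Cacnb2* rose from 6.53 to 17.1 CPM. *Cacna1a* lost its call without both thymocyte (-1.48) or both muscle-rich libraries (-1.61). *Scn8a* was lower (-1.28) but lost its call in 10 alternatives, among them without *Glis3*-Pax8Cre(LID) replicates 2, 3 or 4 or WT(LID) replicates 1, 2 or 3 (-1.35 to -1.14).

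Of 60 genes of calcium stores and calcium-dependent enzymes, 8 were lower (13.3%) and 4 higher (6.67%). *Ryr2*, a calcium release channel, rose from 1.199, 1.13, 0.449 and 1.2 CPM to 11.4, 4.88, 11.2 and 11.8 CPM, and the knockout with the most muscle RNA, replicate 2, was the lowest of its group. *Sphk1*, which makes sphingosine 1-phosphate, rose from 5.35 ± 0.9296 to 29.9 ± 8.79 CPM, and its endothelial receptor *S1pr1* was lower (-1.72). *Phkg1*, of phosphorylase kinase, fell from 11.2 to 2.42 CPM. The nitric oxide synthases went apart, endothelial *Nos3* being lower (-1.96) and inducible *Nos2* higher (1.75). Of 59 cyclic nucleotide enzymes and RGS proteins, 6 were lower (10.2%) and 3 higher (5.08%). *Adcy4*, an adenylyl cyclase, fell from 52.6, 52.6, 46.95 and 47.2 CPM to 15.7, 17.9, 16.3 and 12.8 CPM, and *Pde1c*, a calcium-activated phosphodiesterase, rose from 18.02, 18.3, 18.1 and 18.7 CPM to 67.6, 59.9, 99.2 and 81.03 CPM. *Rgs7bp* averaged 6.34 to 2.56 CPM and *Rgs17* 1.44 to 4.702 CPM.

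Of 171 G protein-coupled receptors, 25 were lower (14.6%) and 9 higher (5.26%), with a median of -0.19. The lower count was 14 where at least 10 counts were asked of every mouse, and the higher count 5 without both thymocyte libraries. *Gpr37* was 1.55, 3.19, 3.27 and 2.91 CPM in the WT mice against 0.0259, 0.0976, 0.111 and 0.0352 CPM in the knockouts, which had 2, 6, 9 and 2 read pairs. The muscarinic receptor *Chrm2* fell from 2.06 ± 0.372 to 0.288 ± 0.135 CPM. Of the higher ones, the R-spondin receptor *Lgr6* rose from 0.863 to 3.64 CPM and the melanocortin receptor *Mc4r* from 2.63 to 10.9 CPM. *Mc4r* lost its call without WT(LID) replicate 2 (1.996 on the log2 scale) or 4 (1.91) or both thymocyte libraries (2.26).

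Developmental transcription factors were lower in 27 of 161 (16.8%) and higher in 10 (6.21%), with a median of -0.23. The higher count was 6 without WT(LID) replicate 1, without WT(LID) replicate 3, without both muscle-rich libraries or with at least 10 counts in every mouse, and 5 without both thymocyte libraries. The name pattern of this list also took *Foxd2os*, *Nkx2-2os* and *Foxred2*, which are not transcription factors. *Foxf2*, a forkhead factor of mesenchyme, was 7.05, 11.3, 6.04 and 12.6 CPM in the WT mice against 0.609, 0.504, 1.32 and 0.387 CPM in the knockouts, and its neighbour *Foxq1* fell from 7.76 ± 0.511 to 0.917 ± 0.217 CPM. The endothelial factors *Sox7* (-1.57), *Sox18* (-1.30) and *Klf2* (-1.36) were lower beside the endothelial markers. *Nkx2-4*, a close relative of the thyroid factor NKX2-1, had 3, 0, 1 and 2 read pairs in WT(LID) and 293, 329, 408 and 310 in *Glis3*-Pax8Cre(LID). Scaled for depth, its counts were 239 times higher in the knockouts (exact interval for counting error 109.6 to 653, 95%). *Gata4*, a factor of endoderm and heart, was 0.0261, 0.201, 0.0899 and 0.045 CPM in the WT mice against 2.67, 6.18, 5.63 and 5.47 CPM in the knockouts, and its call was lost without WT(LID) replicates 1, 3 or 4 (5.44 to 5.77 on the log2 scale), without both thymocyte (5.72) and without both muscle-rich libraries (5.65). Its relative *Gata6* was lower (-1.08). Of 37 nuclear receptors, 3 were higher (8.11%) and 0 lower, namely *Nr5a2* (from 0.444 to 3.496 CPM), the adipogenic *Pparg* (from 13.5 to 30.1 CPM) and *Nr3c2* (1.00). At an unadjusted p under 0.05 edgeR had 9 lower, and DESeq2 called 1. A lower member was also called without *Glis3*-Pax8Cre(ND) replicates 3 or 4, in the 8 LID mice alone and with the replicate block, and 5 were higher with library size alone. Summed adipocyte markers were 337 to 609 CPM in WT(LID) and 378 to 851 CPM in the knockouts with 0 of 6 called by edgeR or DESeq2 and 2 higher at an unadjusted p under 0.05. *Pparg* lost its call without both muscle-rich libraries (1.02 on the log2 scale). The part of the adipocyte markers in it was not tested.

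Of 312 solute carriers, 20 were lower (6.41%) and 14 higher (4.49%), against 5.02% and 2.92% of all genes. *Slc5a9*, a sodium-coupled sugar transporter related to that of iodide, was 103, 102, 88.4 and 91.3 CPM in the WT mice against 10.02, 12.6, 12.7 and 11.7 CPM in the knockouts. *Slc26a9*, of the anion transporter family that includes pendrin, rose from 0.678, 0.746, 0.485 and 0.54 CPM to 2.47, 2.31, 2.896 and 2.86 CPM. Its relative *Slc26a3* also rose (3.00). Of 53 AMP kinase genes and targets, 4 were higher (7.55%) and 1 lower (1.89%), or 2 lower without *Glis3*-Pax8Cre(LID) replicate 2 and with the replicate block. *Fbp1*, a gluconeogenic enzyme, rose from 357, 356, 396 and 400.0 CPM to 1311, 1586, 1358 and 1347 CPM, *Srebf1*, a regulator of lipid synthesis, from 284 to 638 CPM, and the leptin receptor *Lepr* fell from 10.1 to 4.43 CPM.

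Carbohydrate and lipid enzymes were divided. Of 39 glycosphingolipid enzymes, 6 were higher (15.4%) and 3 lower (7.69%), and 2 were higher with at least 10 counts in every mouse. *B4galt6*, which makes lactosylceramide, rose from 18.2 ± 2.42 to 44.4 ± 5.94 CPM and *Fut9*, a fucosyltransferase, from 0.818 to 2.43 CPM. *Ugt8a*, which makes galactosylceramide, had a log2 fold change of 2.99. *B3gnt3* fell from 24.3 to 7.99 CPM and the sialyltransferase *St6galnac3* from 6.55 to 2.61 CPM, which lost its call without both thymocyte (-1.17) or both muscle-rich libraries (-1.32). Of 43 heparan and chondroitin sulfate enzymes, 4 were lower (9.30%) and 3 higher (6.98%). *Chsy1*, a chondroitin synthase, rose from 58.3 to 147 CPM and *Hs3st3a1* from 1.37 to 6.603 CPM, while *Chst3* fell from 20.5 to 5.78 CPM and *Hs3st1* from 5.54 to 2.16 CPM.

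Of 76 cytochromes P450 and aldehyde or retinol dehydrogenases, 6 were lower (7.89%) and 3 higher (3.95%), and 5 were higher with library size alone or DESeq2. *Cyp11a1*, which makes pregnenolone from cholesterol in steroidogenic cells, was 0.339, 0.316, 0.252 and 0.3 CPM in the WT mice against 4.6, 3.97, 4.41 and 5.62 CPM in the knockouts. *Cyp4v3* rose from 19.2 ± 0.8402 to 91.5 ± 14.1 CPM. *Rdh12*, a retinol dehydrogenase, fell from 3.84 to 1.43 CPM and *Cyp3a13* from 5.11 to 1.72 CPM. *Rdh12* lost its call without both thymocyte libraries (-1.24).

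Of 83 interleukin and TNF family genes, 5 were lower (6.02%) and 4 higher (4.82%), against 5.02% and 2.92% of all genes. The lower count was 3 without *Glis3*-Pax8Cre(LID) replicates 2 or 4, without both thymocyte or both muscle-rich libraries, and with at least 10 counts in every mouse. *Il18r1*, a chain of the interleukin 18 receptor, was 31.3, 36.3, 32.3 and 30.4 CPM in the WT mice against 3.98, 4.36, 5.27 and 4.61 CPM in the knockouts. *Tnfrsf25* fell from 7.18 to 2.103 CPM and *Tnfrsf26* rose from 3.23 to 13.7 CPM. Of 58 axon guidance ligands and receptors, 8 were lower (13.8%) and 3 higher (5.17%), with a median of -0.42. *Slit1* fell from 3.21, 3.75, 5.75 and 2.805 CPM to 0.466, 0.716, 0.965 and 1.04 CPM and *Robo3* from 2.07 to 0.526 CPM, while the netrin *Ntn5* rose from 1.28 to 8.17 CPM and the netrin receptor *Unc5c* from 2.47 to 10.9 CPM. The 3 higher genes lost their calls without both thymocyte libraries (*Unc5c* 2.25 and *Ntn5* 2.67 on the log2 scale), and *Ntn5* also without WT(LID) replicates 2 (2.62) or 4 (2.59), without both muscle-rich libraries (2.78) and with DESeq2 (2.68).

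Genes near the altered loci were counted because the knockouts carry modified alleles there. Within 10 Mb of *Glis3* (mm10 chr19:28258851-28680077) 13 of 115 tested genes were called (11.3%), 5 lower and 8 higher, and within 10 Mb of *Pax8* (chr2:24420551-24475599) 22 of 245 (8.98%), against 7.93% of all genes. Within 5 Mb of *Pax8* the share was 12.98%, 17 of 131, with 6 higher, among them the lipocalins *Obp2a*, *Obp2b* and *Lcn3*. *Slc2a6* lies in the same window. Within 5 Mb of *Glis3* it was 8.77%, 5 of 57, and within 20 Mb it was 9.36% for *Glis3* and 8.04% for *Pax8*. Over the autosomes and X the share ran from 5.93% to 9.64%.

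The effect of GLIS3 loss under LID was tested against that on ND. The effects differed in 603 genes (3.63%), 480 with a lower and 123 with a higher value under LID. On ND itself 690 genes were called (4.15%), 310 lower and 380 higher, and 433 lower and 558 higher without WT(ND) replicate 3. Of the genes lower under LID, 120 were also lower on ND, 14.4% of the LID list and 38.7% of the ND list. Of the genes higher under LID, 173 were also higher on ND, 35.7% and 45.5% of the lists. The median ND log2 fold change was -0.34 for the genes lower under LID and 0.98 for those higher. Without WT(ND) replicate 3 the shared genes were 173 lower (20.1% of the LID list) and 269 higher (51.2%), and 706 genes differed in effect. The median ND log2 fold changes were then -0.41 and 1.25. Without both thymocyte libraries 400 genes differed in effect. The difference in effect was called lower for 325 of the 834 genes lower under LID (39.0%), and higher for 65 of the 485 higher genes (13.4%). Without WT(ND) replicate 3 it was called lower for 307 of 861 (35.7%) and higher for 65 of 525 (12.4%). The LID lists were chosen by LID values that also enter the difference in effect. These shares are therefore shaped in part by that choice, as is a comparison of LID with ND values in the chosen genes.

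Among the named genes, which were chosen by their LID change, several that fell under LID showed little difference on ND. *Car15* had a log2 fold change of -0.16 on ND, and its LID effect was lower by -3.88 ± 0.31 (SE, adjusted p 2.52e-06), with a value of -3.89 without WT(ND) replicate 3. *Adamts8* had 0.35 on ND with a difference of -3.96 ± 0.41 (adjusted p 1.86e-05), and *Padi2* had -0.46 with a difference of -3.58 ± 0.48 (adjusted p 0.000279). *Cdh16* and *Dio1* were likewise near 0 on ND, at 0.02 and -0.13, with called differences. *Slc2a6* was lower on both diets, at -3.09 on ND, and its difference in effect was not called. Without WT(ND) replicate 3 the ND values were -0.15 for *Car15*, 0.25 for *Adamts8*, -0.60 for *Padi2*, 0.01 for *Cdh16*, -0.16 for *Dio1* and -3.26 for *Slc2a6*, and the same 5 differences were called.

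Of the 12 largest rises, 9 were also called higher on ND, and all 12 were without WT(ND) replicate 3. *Hhip* had a log2 fold change of 4.72 on ND, *Hp* 3.20, *Pmp2* 3.53 and *Psap* 1.08, and for none of these was the difference in effect called. Without WT(ND) replicate 3 they were 4.94, 3.33, 3.78 and 1.13, again with no called difference. A difference that is not called does not show equal effects, and with all mice that of *Hhip* was 1.05 ± 0.38 (SE, adjusted p 0.0909). *Cck* and *Ptprn* were higher on ND by 1.95 and 2.02, and their LID effects were larger by 3.99 ± 0.42 (adjusted p 2.77e-05) and 3.59 ± 0.56 (adjusted p 0.000736), or by 3.75 and 3.59 without WT(ND) replicate 3, both called. The ND values of *Cpne4*, *Sftpb* and *Rbm11* changed with the library labelled WT(ND) replicate 3. With all mice they were 3.22, 1.64 and 1.65, not called, and without WT(ND) replicate 3 they were 5.65, 3.96 and 3.17, all called. *Esp8* gained a called difference without it, of -2.04 (adjusted p 0.00353).

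**Figure D5:**
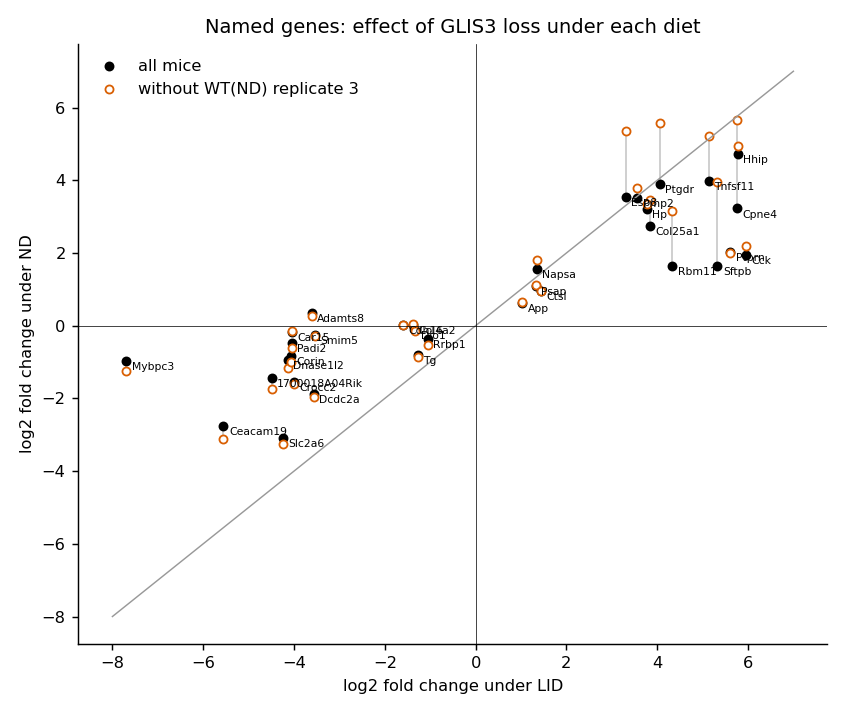
Each gene described here for the size of its change is placed by its log2 fold change of *Glis3*-Pax8Cre over WT under LID and under ND, black with all mice and orange without WT(ND) replicate 3, joined by a grey line, and the diagonal marks equal effects. *Cpne4* moves from 3.22 to 5.65 on the ND axis, while *Car15* and *Adamts8* stay near 0 there.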

How the data were processed

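RNA from thyroid glands of 16 mice was sequenced in pairs, and the 8 LID mice form the main comparison. The authors filtered reads by quality, mapped them to mm10 with STAR (2.5) and counted read pairs in RefSeq genes with featureCounts (1.5.0-p1) without regard to strand. The deposited table holds raw counts, which the authors did not normalize. Its symbols include 0 mitochondrial transcripts. The methods name a stranded and an unstranded kit and a pair of instruments without assigning them to samples, so a batch could not be fitted. Counts were tested with edgeR (4.0.16, R 4.3.3) by its quasi-likelihood test on all 16 mice with 1 mean per group, after filterByExpr and TMM scaling, and Benjamini-Hochberg adjustment over all genes tested. Replicates were separate mice. Genes that overlap another entry, among them *Tg*, *App*, *Tagln*, *Phkg1*, *Srebf1*, *Chrm2*, *Cacnb2* and *Ntn5*, may hold its reads. Named genes were the 12 largest rises and falls (called, no overlap, mean of at least 5 CPM), the 6 largest gains and losses in CPM, and up to 2 called genes per direction and list with at least 1 CPM, leaving out genes that the study itself discusses. Some named genes are not reported here. *Tshr* and other markers come from the marker lists, and further list members and *Gli1* were named after their values were seen. The members and lists were chosen with earlier results of these data known. Counts of 16630 genes were simulated for the LID comparison. An adjusted p under 0.01, without the fold threshold, was reached by 77 of 100 genes changed 2-fold and 96 of 100 changed 4-fold. Of the unchanged genes 0 reached it, and 18 did with DESeq2. For the difference in effect between diets it was reached by 53 of 100 and 87 of 100 changed genes and by 1 unchanged gene. A difference that was not called may therefore have been missed. Replicates differed beyond sampling noise. Same-numbered mice did not deviate together (correlations 0.21, -0.25, -0.46 and -0.25), so no pairing was used. Intervals cover counting error alone. Alternatives were DESeq2 (1.42.0), other scalings, filters and thresholds, the LID mice alone, a replicate block and each mouse left out.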

Additional observations from a re-analysis of the deposited data

Results flagged for a closer look

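Of 198 groups of 4 values of named genes, 9 (4.55%) held a mouse far from the other 3, about the 1 in 20 that chance gives. In *Glis3*-Pax8Cre(LID) these were *Rbm11* in replicate 4 (13.3 CPM, others 10.4 to 10.6), *1700018A04Rik* in replicate 3 (1.05 CPM, others 0.374 to 0.428), *Ryr2* in replicate 2 (4.88 CPM, others 11.2 to 11.8), *Chsy1* in replicate 1 (101 CPM, others 157 to 166) and *Tnfrsf26* in replicate 1 (11.4 CPM, others 14.3 to 14.6). In WT(LID) they were *Slc2a6* in replicate 1 (48.6 CPM, others 19.1 to 22.3), *Syt7* in replicate 4 (19.6 CPM, others 21.7 to 22.1), *Ryr2* in replicate 3 (0.449 CPM, others 1.13 to 1.20) and *Lepr* in replicate 2 (9.27 CPM, others 10.3 to 10.5). The *Ryr2* values were lowest in the 2 libraries with the most skeletal muscle RNA, whose part was not tested.

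For 13 of the genes named for the size of their change under LID, the effect of GLIS3 loss differed between the diets by the interaction test. The LID values that chose these genes also enter that test. The LID effect was higher than the ND effect, in log2 units, by 3.99 ± 0.42 (SE) for *Cck* and 3.59 ± 0.56 for *Ptprn*. It was lower for *Mybpc3* (-6.72 ± 1.32), *Dnase1l2* (-3.18 ± 0.40), *Corin* (-3.21 ± 0.69), *Padi2* (-3.58 ± 0.48), *Car15* (-3.88 ± 0.31), *Crocc2* (-2.46 ± 0.32), *Adamts8* (-3.96 ± 0.41), *Smim5* (-3.27 ± 0.41), *Cdh16* (-1.63 ± 0.23), *Col4a2* (-1.39 ± 0.23) and *Dio1* (-1.20 ± 0.16). Without WT(ND) replicate 3, *Corin* was no longer called (adjusted p 0.0135) and the other 12 were.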

How the results depend on the processing

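With all mice, 834 genes were lower, 485 higher and 603 differed in effect between diets. At an adjusted p under 0.05 with any fold these were 2557, 2471 and 1969, and with a test against a fold of 2 they were 282, 208 and 138. An adjusted p under 0.05 with fold over 2 gave 1019 genes with a different effect, and DESeq2 gave 969. Leaving out both thymocyte libraries gave 400, and this choice and that of the muscle-rich libraries were made after seeing the data. With each mouse left out in turn, lower genes were 709 to 904, higher genes 420 to 525 and genes with a different effect 465 to 706. The replicate block, for which the numbers showed no pairing, gave 823, 481 and 582. The *Tg* share differed by -13.8 to -11.4 percentage points with 1 LID mouse left out, where p could not go under 0.0571. Of 102 named genes, 84 kept their call in every refit in which they were tested, and none reversed. The other thresholds and the test against a fold of 2 were not applied to single named genes. Of the 102, 15 had under 10 counts in some mouse and were not tested where that was asked, and *Tg* was not where it was left out. In 2636 gene and setting pairs 68 lost the call, the *Tg* level among them when both thymocyte (-1.18 on the log2 scale) or both muscle-rich libraries (-1.09) were left out. Of 1160 list counts recomputed, 120 moved by over 1.5 times. Depth limits *Nkx2-4* and *Gata4*, which had few reads in WT(LID), and *Mybpc3*, *Ceacam19* and *Gpr37*, which had few in the knockouts. *Gata4* also varied among the WT(ND) mice (0.736 ± 1.37 CPM, SD), and this spread enters the shared estimate. *Esp8*, *Ptgdr*, *Ntn5* and *Slc34a2* likewise had a WT(ND) SD above their mean. The part of this spread in their lost calls was not tested.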
